A study of Mus musculus with 16 samples.

Results

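The EGF receptor family and its ligands were described here by 10 genes: the receptors Egfr, Erbb2 and Erbb3, the ligands Areg, Ereg, Hbegf, Tgfa, Btc and Egf, and the feedback inhibitor Errfi1. Probes were assigned to them by gene symbol alone, and the list of genes was drawn up with earlier results of these data known. Of the 25697 array probes, 12 carried one of these symbols. They covered 8 of the 10 genes, with 4 probes for Egfr, 2 for Ereg and 1 for each of the others, while Erbb2 and Erbb3 were not analysed here. The arrays came from small intestine of 8 Hnf4aKO and 8 Hnf4aWT mice, 1 Illumina bead array each. Hnf4aKO mice carried VillinCreERT2, a tamoxifen-inducible Cre recombinase expressed in intestinal epithelium, with loxP-flanked Hnf4a alleles. Hnf4aWT mice lacked the Cre. Their Hnf4a alleles are given as loxP-flanked in one label and as Hnf4a+/+ in another. All mice received 1 mg tamoxifen by gavage on 5 days, 14 Gy of whole-body gamma irradiation 3 weeks later, and were killed 96 h after that. There was therefore no unirradiated sample, and Cre status went with genotype.

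EGFR is a receptor tyrosine kinase that, once a ligand binds, pairs with itself or with another ERBB receptor and starts the RAS-ERK and PI3K cascades. Its ligands are made as membrane-bound precursors and released by ADAM metalloproteases. In the intestine this signal drives crypt cell division and is used for regrowth after injury, and several inhibitors, Errfi1 among them, are induced by the signal and dampen it.

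Hnf4a, the gene targeted by the Cre, read between 10.15 and 10.69 log2 units of normalized intensity on the Hnf4aKO arrays (median 10.48), against 11.89 to 12.49 on the Hnf4aWT arrays (median 12.22). The groups did not overlap, and Hnf4aKO tissue held 29.7% of the Hnf4aWT signal (log2 difference -1.75, SE 0.10, limma adjusted p = 2.04e-09; exact permutation p = 0.000155, two-sided, the smallest the splits allow). Each array detected 46.9% to 53.1% of its probes. The 8 tested markers of small intestinal epithelium, Vil1 and Cdx2 among them, were detected on all 16 arrays, and 1 of the 8, Krt20, passed the threshold, at 0.35. The enterocyte genes Sis, Apoa4 and Slc5a1 were detected on all 16 arrays, Fabp1 on 4 and Fabp2 on none. The ileal gene Fabp6 was detected on 13 arrays, and the ileal bile acid transporter gene Slc10a2 on none.

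Egfr, the ligand genes Areg and Btc, and the inhibitor gene Errfi1 were higher in Hnf4aKO than in Hnf4aWT tissue, with log2 differences of 1.00, 0.64, 0.79 and 0.50. Hbegf differed by 0.42 and did not pass the threshold. Ereg differed by -0.10 and did not pass. Tgfa and Egf were not detected on any of the 16 arrays. A gene was tested if a probe was detected on at least 6 arrays, with the brightest probe taken, and the threshold was an adjusted p of 0.05 in limma's moderated test over 10143 genes. So 4 of the 6 tested members rose and none fell, where 13.5% of all genes tested rose and 17.2% fell. Of all genes past the threshold 44.1% were higher, and 32.3% with median scaling of the arrays. With median scaling 2 of the 6 members rose (Egfr and Btc), where 872 of the 10143 genes tested rose. On slide 1 alone, with 4 arrays per genotype, 1 member rose (Egfr), where 762 genes passed in either direction. The median difference of the 6 members was 0.57, and that of all genes tested -0.02. The tissue was measured whole, so a change in the number of cells of a type cannot be told apart from a change in RNA per cell.

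The stretches of 250 bases upstream of the start sites of the 4 genes that rose are shown because these genes moved in the same direction. They are RefSeq sequences of build GRCm38.p6, 5′ to 3′ on the gene's own strand: Egfr at chr11:16751953-16752202 (plus strand), Areg at chr5:91139349-91139598 (plus), Btc at chr5:91402995-91403244 (minus) and the downstream of 2 Errfi1 start sites at chr4:150854820-150855069 (plus). Capitals mark matches on either strand to the letters TGACGTCA (the cAMP response element, CRE), GGGCGG (the SP1 site) and TATAAA (the TATA box).
Egfr: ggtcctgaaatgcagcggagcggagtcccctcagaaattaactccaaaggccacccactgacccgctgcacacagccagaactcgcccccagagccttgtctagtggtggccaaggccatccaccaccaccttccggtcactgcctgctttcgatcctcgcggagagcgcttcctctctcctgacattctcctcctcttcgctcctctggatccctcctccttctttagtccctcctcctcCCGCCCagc
Areg: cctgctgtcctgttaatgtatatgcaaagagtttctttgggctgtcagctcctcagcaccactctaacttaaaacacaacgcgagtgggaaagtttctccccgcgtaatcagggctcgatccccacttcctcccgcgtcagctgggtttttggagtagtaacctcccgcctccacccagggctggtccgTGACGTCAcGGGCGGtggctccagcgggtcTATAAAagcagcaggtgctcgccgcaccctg
Btc: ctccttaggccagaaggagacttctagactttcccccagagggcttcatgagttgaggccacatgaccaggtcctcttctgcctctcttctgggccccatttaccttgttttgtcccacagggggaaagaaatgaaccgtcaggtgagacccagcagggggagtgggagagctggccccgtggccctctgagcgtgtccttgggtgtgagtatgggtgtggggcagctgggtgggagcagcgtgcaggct
Errfi1: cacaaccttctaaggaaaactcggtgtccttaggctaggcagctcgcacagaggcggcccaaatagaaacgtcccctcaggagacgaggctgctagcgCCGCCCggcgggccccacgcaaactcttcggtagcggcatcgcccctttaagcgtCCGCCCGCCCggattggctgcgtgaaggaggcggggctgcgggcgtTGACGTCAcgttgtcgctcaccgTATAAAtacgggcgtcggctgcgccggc
Areg held the CRE 61 to 54 bases and the TATA box 31 to 26 bases before its start. The downstream Errfi1 start held the CRE 51 to 44 bases and the TATA box 28 to 23 bases before it. The CRE letters were present in 1.55% of all 32851 windows of this length, the TATA letters in 12.4%, and both together in 0.119%, a pairing counted after these sequences were seen. Errfi1 also held 3 SP1 matches, 2 of which overlap, Areg 1 and Egfr 1, where 32.7% of all windows held at least 1. The Btc window held none of the motifs. The letters CAAAGTCCA, bound by HNF4 factors (0.384% of all windows), TGANTCA, bound by AP-1 (6.75%), and GGAATG, bound by TEAD factors (12.6%), were searched on both strands and were in none of these 4 windows. The upstream Errfi1 window, not shown, held GGAATG once and no CRE, TATA box, SP1 or other searched match. These matches are descriptions of letters, and no binding was measured.

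Egfr was the only receptor of the family measured. Its brightest probe, designed for transcript variant 1, read 10.92 at the lowest, 11.29 at the median and 11.82 at the highest on the Hnf4aKO arrays, against 9.89, 10.38 and 10.72 on the Hnf4aWT arrays. Every Hnf4aKO array was above every Hnf4aWT array, which held in this direction for 2.54% of all genes tested. Egfr was 1.00 log2 units higher (SE 0.16, adjusted p = 0.000187). It ranked 279 among 10143 genes by size of increase.

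The other Egfr probes gave the same direction. Of the 2 designed for transcript variant 2, 1 read 8.78, 9.17 and 9.90 (lowest, median, highest) in Hnf4aKO and 8.14, 8.38 and 8.83 in Hnf4aWT tissue. The other read 8.61, 9.17 and 9.89 in Hnf4aKO and 7.93, 8.47 and 8.84 in Hnf4aWT tissue. For the first, 7 of 8 Hnf4aKO arrays were above all Hnf4aWT arrays, and for the other, 6 of 8. Fitted over all 13460 probes that passed the detection filter, of which 29.4% passed the threshold and 12.4% rose, the differences were 0.85 (95% interval 0.55 to 1.15, adjusted p = 0.000388) and 0.71 (0.37 to 1.05, adjusted p = 0.00331). A dim probe without a transcript annotation differed by 0.57 (0.12 to 1.02, adjusted p = 0.0519) and was detected on 7 of 8 arrays in each genotype. The variant 1 probe differed by 1.00 (0.67 to 1.33) in that fit, so the intervals of all 4 probes overlapped.

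Amphiregulin (Areg), an EGFR ligand associated with tissue repair, read 12.42, 12.72 and 13.19 (lowest, median, highest) on the Hnf4aKO arrays, against 11.65, 12.12 and 12.60 on the Hnf4aWT arrays. The groups overlapped, with 6 of 8 Hnf4aKO arrays above every Hnf4aWT array. Areg was 1.56-fold higher (log2 difference 0.64, SE 0.15, adjusted p = 0.00408), and the call was lost with median scaling of the arrays in place of quantile normalization (0.40, adjusted p = 0.0833). Betacellulin (Btc), a ligand of EGFR and ERBB4, spread more. It read 9.02, 9.92 and 10.57 in Hnf4aKO tissue and 8.28, 9.26 and 9.79 in Hnf4aWT tissue, with 6 of 8 Hnf4aKO arrays above every Hnf4aWT array. Its difference was 1.73-fold (log2 0.79, SE 0.25, adjusted p = 0.0220).

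Heparin-binding EGF-like growth factor (Hbegf), a ligand of EGFR and ERBB4, read 8.41, 9.41 and 9.67 (lowest, median, highest) in Hnf4aKO tissue, against 8.43, 8.93 and 9.40 in Hnf4aWT tissue. Hnf4aKO array 1 was the lowest of all 16, although 4 Hnf4aKO arrays were above every Hnf4aWT array. The difference of 0.42 (SE 0.17, 95% interval 0.06 to 0.77) had an adjusted p of 0.0734. Without Hnf4aKO array 1 it was 0.55 (adjusted p = 0.00499), and without Hnf4aWT array 7 it was 0.48 (adjusted p = 0.0401).

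Epiregulin (Ereg), a ligand of EGFR and ERBB4, had a probe annotated to its transcript that was not detected on any array. The other Ereg probe carries the symbol and no transcript annotation, and was detected on 7 of 8 arrays in each genotype. It read 5.29, 6.29 and 6.90 (lowest, median, highest) in Hnf4aKO tissue and 5.96, 6.26 and 7.11 in Hnf4aWT tissue, so the groups overlapped over most of their ranges. Its difference was -0.10 (SE 0.21, 95% interval -0.55 to 0.36, adjusted p = 0.768). The difference was -0.06 without background correction.

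Transforming growth factor alpha (Tgfa), an EGFR ligand of many epithelia, had a raw intensity of 127 to 170 on the Hnf4aKO arrays and 91.9 to 172 on the Hnf4aWT arrays. Egf, the ligand that names the family, had 100.03 to 162 in Hnf4aKO and 87.7 to 147 in Hnf4aWT tissue. Neither exceeded the negative control beads at a detection p of 0.05 on any array, and no fold change is given for them. A low level of these transcripts was not detectable with these probes.

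Errfi1 (also called MIG6) encodes a protein that binds the EGFR kinase domain and blocks it. It read 11.83, 12.41 and 12.63 (lowest, median, highest) on the Hnf4aKO arrays, against 11.43, 11.64 and 12.32 on the Hnf4aWT arrays, and 5 of 8 Hnf4aKO arrays were above every Hnf4aWT array. Errfi1 was 1.42-fold higher (log2 difference 0.50, SE 0.15, adjusted p = 0.0183). Scaling the arrays to their 75th percentile ended the call (0.35, adjusted p = 0.123), as did scaling to the median (0.29, adjusted p = 0.302).

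**Figure D1:**
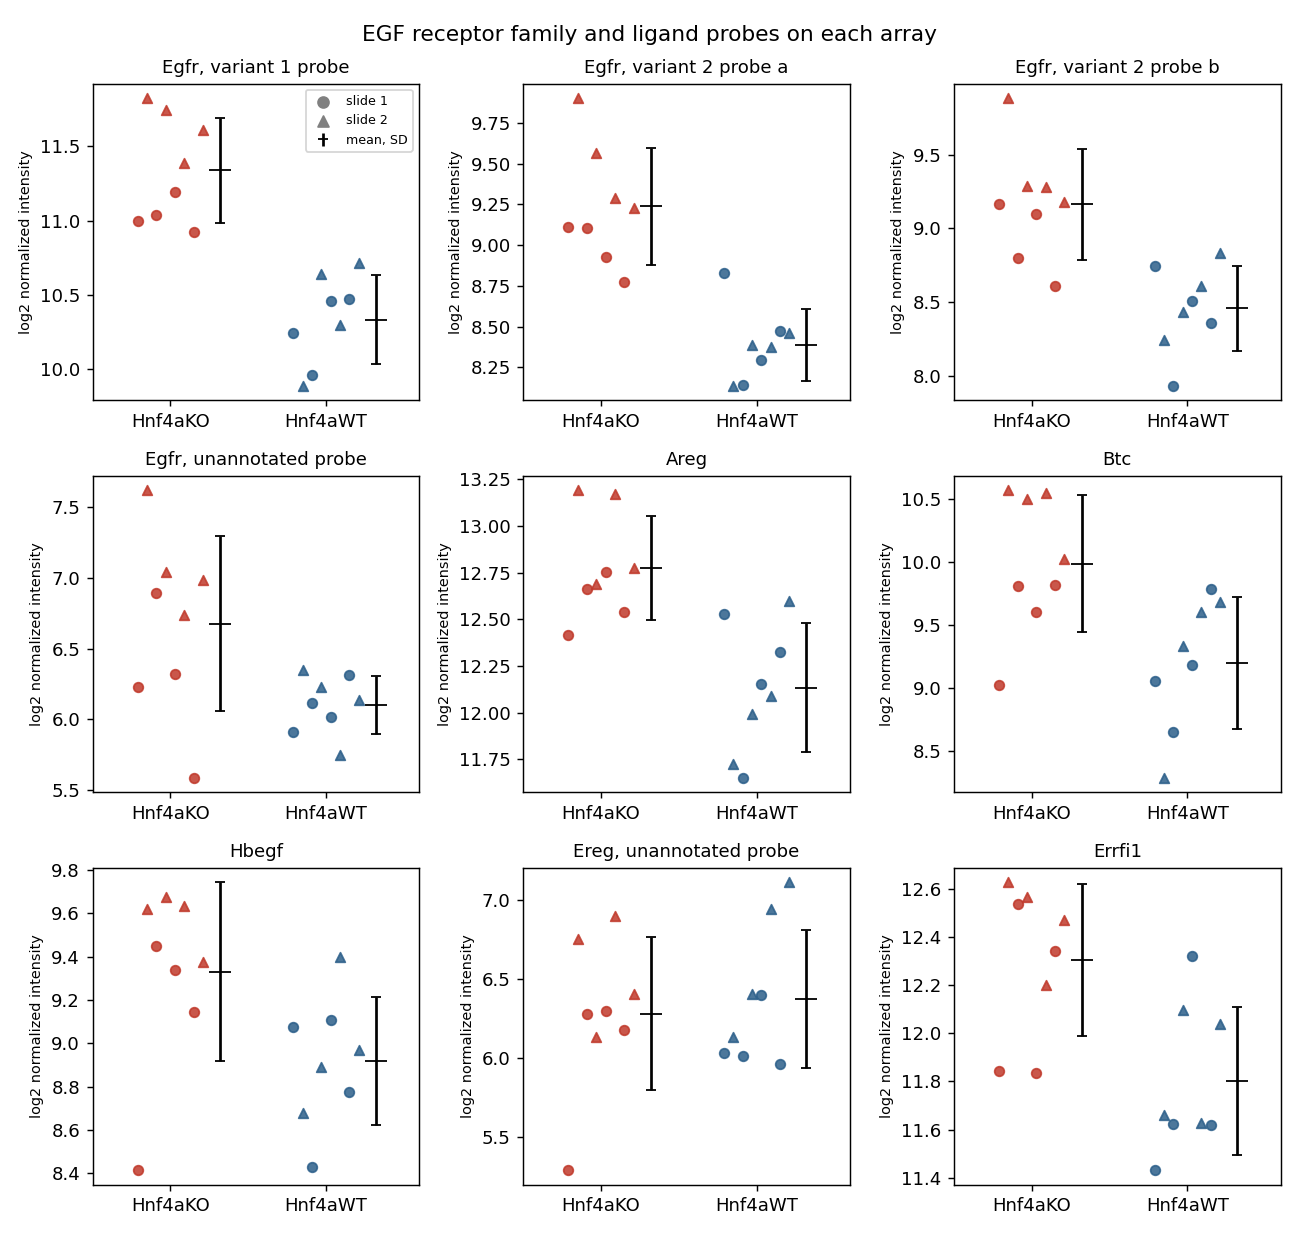
Log2 normalized intensity (y axis, a separate range for each panel) of the 9 member probes that passed the detection filter, for Hnf4aKO (left, red) and Hnf4aWT arrays (right, blue). Each point is 1 array, circles are slide 1 and triangles slide 2, and black bars give the mean and SD of 8 arrays. The groups part fully for the variant 1 Egfr probe, whose lowest Hnf4aKO value is 10.92 and highest Hnf4aWT value 10.72, and Hnf4aKO array 1 is the low point at 8.41 for Hbegf and 5.29 for Ereg.

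The array labels carry 2 different numbers before a position letter, taken here as 2 slides, each with 4 arrays per genotype. Egfr differed by 0.75 on slide 1 and by 1.25 on slide 2. For Areg it was 0.43 and 0.85, for Btc 0.39 and 1.19, for Hbegf 0.24 and 0.59, and for Errfi1 0.39 and 0.61. These differences were all positive on both slides and larger on slide 2, while Ereg differed by -0.09 on slide 1 and -0.10 on slide 2. On slide 1 alone Egfr passed, and Areg (adjusted p = 0.192), Btc (0.368) and Errfi1 (0.319) did not. On slide 2 alone 5 members passed, Hbegf among them (adjusted p = 0.0440), where 1332 of the 10143 genes tested passed in either direction. In a genotype by slide interaction fit, chosen after seeing the data, no member passed: the differences between slides were 0.50 for Egfr (adjusted p = 0.993, unadjusted 0.0598) and 0.79 for Btc (adjusted p = 0.993, unadjusted 0.0811). Over all genes the interaction passed for 0 in limma, with 315 at an unadjusted p under 0.05.

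Some members varied together from mouse to mouse within a genotype. For each of the 6 tested genes the genotype mean was subtracted, and the deviations were correlated over 16 arrays for all 15 pairs, with permutation p-values (two-sided, 100000 permutations within genotype) adjusted over the pairs. Egfr and Btc had the highest correlation (Pearson r = 0.80, adjusted permutation p = 0.00765; Spearman rho = 0.82, adjusted permutation p = 0.00570). It was 0.74 without the 2 arrays farthest from the median Egfr deviation and 0.67 with slide means also removed. In the other pairs the 2 farthest arrays were those of the gene named first. Arrays extreme only for the other gene stayed in. Ereg and Hbegf had r = 0.76 (adjusted permutation p = 0.00990) and rho = 0.62 (adjusted permutation p = 0.0413), with r = 0.70 without the 2 farthest arrays. Hbegf and Btc had r = 0.75 (adjusted permutation p = 0.00980) and rho = 0.63 (adjusted permutation p = 0.0413), with r = 0.57 without the 2 farthest. Areg, Ereg, Hbegf and Btc shared Hnf4aKO array 1 as their lowest Hnf4aKO array. Areg and Btc had a similar value (r = 0.74, adjusted permutation p = 0.00980; rho = 0.73, adjusted permutation p = 0.0189). Their r was 0.69 without the 2 farthest arrays and 0.66 with slide means removed. Egfr and Areg had r = 0.65 (adjusted permutation p = 0.0186) and rho = 0.68 (adjusted permutation p = 0.0301), with r = 0.53 without the 2 farthest arrays and 0.56 with slide means removed. Areg and Errfi1, the pair with a CRE and a TATA box before a start site, had r = 0.19 (adjusted permutation p = 0.490) and rho = 0.24 (adjusted permutation p = 0.390). Over the 15 pairs r lay between 0.19 and 0.80, with 10 past the threshold by Pearson's r and 8 by Spearman's rho. The 5 that did not pass by r were Egfr with Ereg (r = 0.52, adjusted permutation p = 0.0620) and 4 of the 5 pairs with Errfi1. Errfi1 had r = 0.47 with Btc (adjusted permutation p = 0.0983), and 0.45 with both Hbegf and Ereg (adjusted permutation p = 0.0991 each). The permutations did not keep slides apart, so shifts between slides enter all these p-values. With slide means removed, r over the 15 pairs lay between 0.03 and 0.71. It fell from 0.57 to 0.32 for Egfr and Hbegf and from 0.58 to 0.45 for Egfr and Errfi1, which had both passed by r. No p-value was computed with slide means removed.

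**Figure D2:**
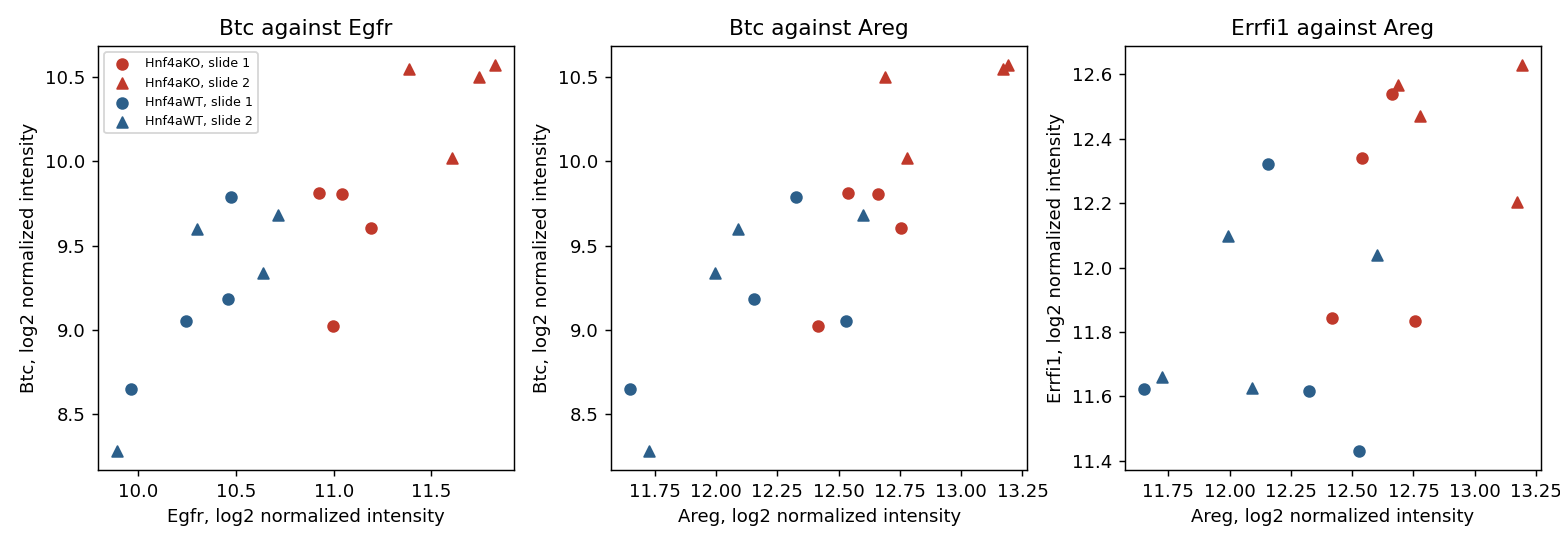
Log2 normalized intensity of Btc against Egfr (left), Btc against Areg (middle) and Errfi1 against Areg (right), 1 point per array, with Hnf4aKO in red, Hnf4aWT in blue, circles for slide 1 and triangles for slide 2. Btc follows Egfr and Areg in both genotypes (deviations from genotype means: r = 0.80 and 0.74), and Errfi1 follows Areg little (r = 0.19).

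Across the 10142 other genes tested, those whose deviations from the genotype means were most like each member that rose were named as a description. For Egfr they were Gbp2, an interferon-induced GTPase (r = 0.87 over 16 arrays), Spats2l (0.86) and Mapk11, a p38 kinase (0.85). Gbp2 was itself 2.25 log2 units higher in Hnf4aKO tissue (adjusted p = 4.66e-06). For Areg they were Syt16 (0.92), the keratin gene Krt23 (0.91) and Itgb4, the integrin beta 4 of epithelial hemidesmosomes (0.91), none of which passed the genotype test. For Btc they were Cdc7 (0.92), Atg9b (0.90) and Agps (0.88), and for Errfi1 Ly75 (0.90), Selenoi (0.89) and Tmbim4 (0.88). The highest 1% of genes began at r = 0.71 for Egfr, 0.68 for Areg, 0.78 for Btc and 0.71 for Errfi1.

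Ereg, Areg and Btc lie next to each other among tested genes on chromosome 5, with Epgn, the gene of the ligand epigen, on the far side of Ereg. These neighbours were chosen after seeing the data. The 4 ligand genes did not all rise: Epgn differed by 0.14 (adjusted p = 0.646), Ereg by -0.10, Areg by 0.64 and Btc by 0.79. Beyond Epgn stood the chemokine gene Cxcl1, which rose by 2.46 (adjusted p = 1.66e-05), and beyond Btc stood Parm1, which rose by 0.30 (adjusted p = 0.0310). The genes around the cluster thus differed in size and direction.

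**Figure D3:**
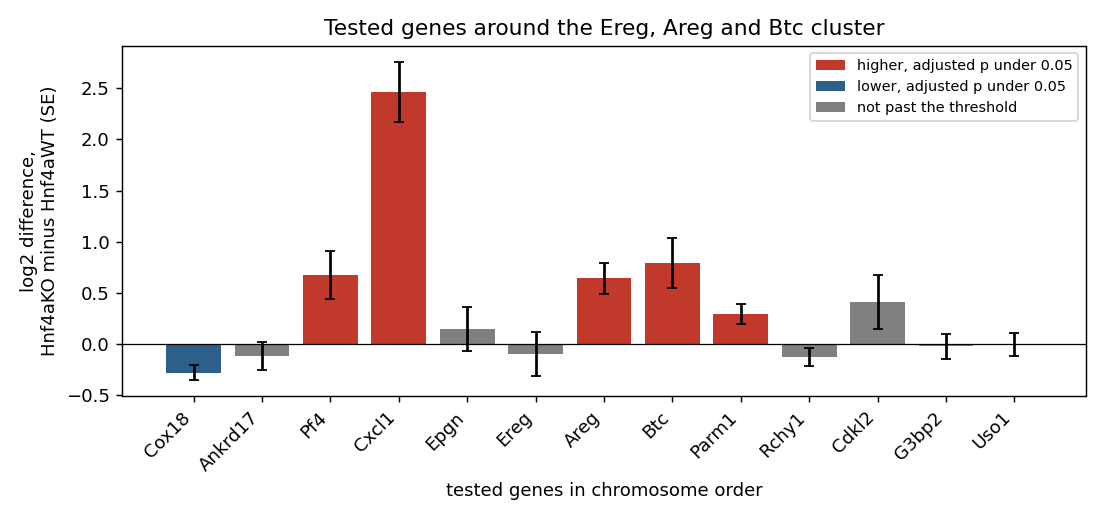
Log2 difference, Hnf4aKO minus Hnf4aWT (y axis, bars with SE), of the tested genes around the Ereg, Areg and Btc cluster in chromosome order (x axis, not to distance). Red bars rose, blue bars fell and grey bars did not pass an adjusted p of 0.05. Areg (0.64) and Btc (0.79) are red beside the grey Ereg (-0.10), and Cxcl1 (2.46) is the tallest bar.

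The other genes of the pathway were counted in 5 lists, of which 47 of 67 genes were tested. Of these 12 rose and 4 fell (34.0% past the threshold, where 30.7% of all genes tested passed), with a median difference of 0.06. With both directions together the share of the pathway genes is near that of all genes, of which 13.5% rose and 17.2% fell. The count of 16 became 9 without Hnf4aKO array 5, 10 without Hnf4aKO array 7 or 8 or Hnf4aWT array 2, and 9 with median scaling (4 higher, 5 lower). Among the other receptor and ligand genes neither of the 2 tested passed, and Nrg1, a neuregulin that binds ERBB3 and ERBB4, differed by -0.35 (adjusted p = 0.326).

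Of 6 tested genes for ligand shedding 3 rose and none fell, which is 50% of them. Of all genes tested 30.7% passed, 13.5% higher and 17.2% lower. Timp3, an inhibitor of the shedding protease ADAM17, rose by 0.94 (SE 0.21, adjusted p = 0.00290), the metalloprotease gene Adam9 by 0.68 (SE 0.16, adjusted p = 0.00413), and Rhbdf1, whose product helps ADAM17 mature, by 0.28 (adjusted p = 0.0376). Rhbdf1 did not pass under 75th percentile scaling (0.17, adjusted p = 0.235) or median scaling (0.10, adjusted p = 0.633), nor when any of 9 arrays was left out (Hnf4aKO 1, 5, 7 or 8, Hnf4aWT 2 to 6). Adam17 itself differed by -0.05 (adjusted p = 0.784). Of 10 negative regulators 2 rose and 1 fell, which is 30% of them, near the share of all genes tested. Sh3kbp1, an adaptor in receptor internalization, rose by 1.02 (SE 0.20, adjusted p = 0.00112), and Socs5, which promotes loss of EGFR, by 0.57 (adjusted p = 0.0267), a call lost with median scaling (adjusted p = 0.0506) and without Hnf4aKO array 4, 5 or 8 or Hnf4aWT array 5 (adjusted p up to 0.0549). Lrig3, of the LRIG family of receptor regulators, fell by 0.40 (adjusted p = 0.0170).

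Of 17 tested genes of the cascade below the receptor 3 rose and 3 fell, which is 35.3% of them, near the 30.7% of all genes tested. Mapk3, the gene of the kinase ERK1, fell by 0.44 (adjusted p = 0.00546). Pik3cb, a catalytic PI3K subunit gene, rose by 0.41 (adjusted p = 0.0107), a call lost with median scaling (0.33, adjusted p = 0.142). Of 12 tested genes induced by ERK signalling 33.3% passed, where 30.7% of all genes tested passed, 13.5% higher and 17.2% lower. Among the 12, 4 rose and none fell. These were Plaur, the urokinase receptor gene, at 0.82 (SE 0.22, adjusted p = 0.0101), the immediate early gene Ier3 at 0.54 (adjusted p = 0.0264), the AP-1 subunit gene Junb at 0.52 (adjusted p = 0.0312), and Dusp6, an ERK phosphatase gene named after its value was seen, at 0.42 (adjusted p = 0.0142). Junb lost its call with both scalings (adjusted p = 0.0844 at the 75th percentile and 0.160 at the median) and without any of 7 arrays (Hnf4aKO 2, 5, 7 or 8, Hnf4aWT 2, 4 or 8). Ier3 lost it with median scaling (0.0966) and without any of 5 (Hnf4aKO 2, 5 or 7, Hnf4aWT 2 or 3). Of the other genes of this list, named after their values were seen, Egr1 differed by 0.27 (adjusted p = 0.298), Fos by 0.15 (0.502), Myc by -0.31 (0.111), Etv4 by -0.16 (0.580) and Etv5 by -0.07 (0.707).

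**Figure D4:**
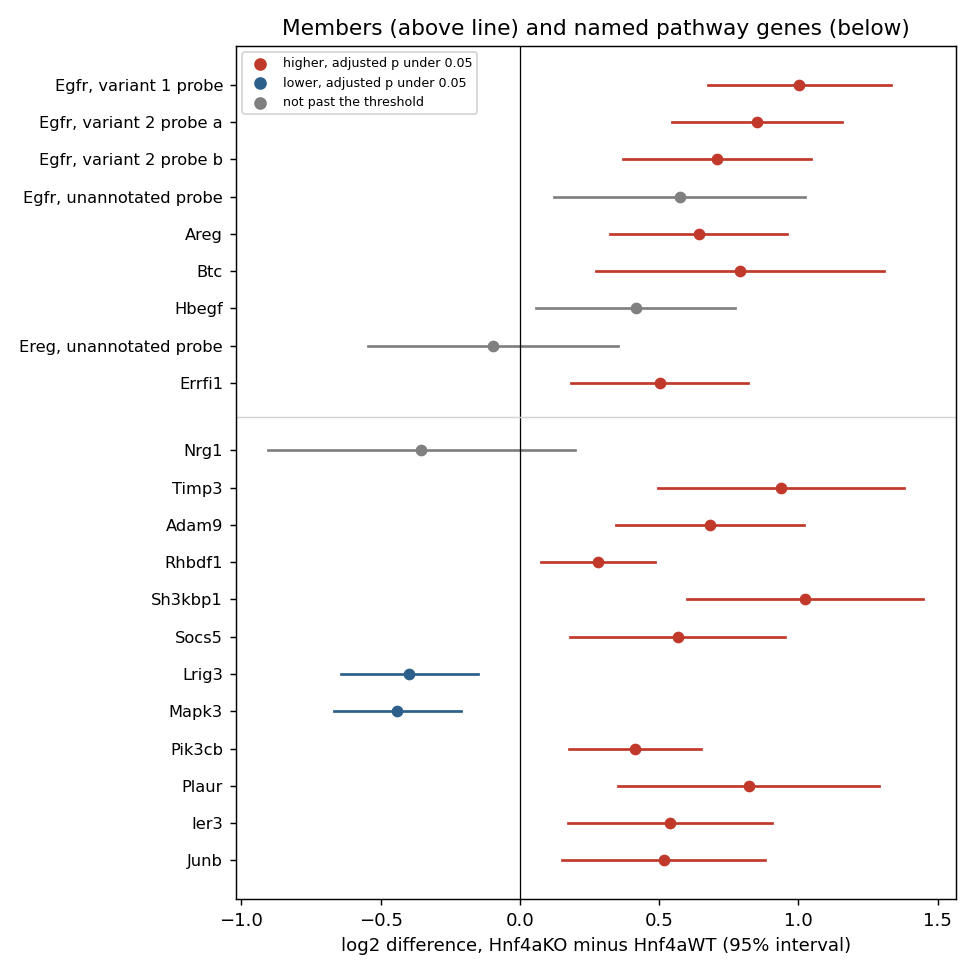
Log2 difference, Hnf4aKO minus Hnf4aWT (x axis), with its 95% interval, for the member probes that passed the detection filter (above the line, fitted over all probes) and for the named genes of the pathway (below, fitted over all genes). Red is higher, blue lower and grey not past an adjusted p of 0.05. The 4 Egfr probes lie between 0.57 and 1.00, and the pathway genes shown run from -0.44 for Mapk3 to 1.02 for Sh3kbp1.

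Markers of several other cell types moved with genotype on the same arrays, where 13.5% of all genes tested rose and 17.2% fell. Of 14 macrophage and dendritic cell markers 11 rose and none fell, with a summed intensity of 18134 to 53468 in Hnf4aKO and 11653 to 19460 in Hnf4aWT tissue. Of 7 endothelial markers 5 rose and none fell (summed 2630 to 4267 in Hnf4aKO and 1583 to 2882 in Hnf4aWT tissue). Of 8 fibroblast markers 5 rose and none fell (15727 to 35415 in Hnf4aKO and 12996 to 22120 in Hnf4aWT tissue). Of 8 epithelial markers 1 rose and none fell (55909 to 71969 in Hnf4aKO and 56456 to 69596 in Hnf4aWT tissue). Of 3 crypt base stem cell markers 1 fell and none rose (summed 400.2 to 1180.1 in Hnf4aKO and 1523 to 2656 in Hnf4aWT tissue). The one that fell was Olfm4 (log2 difference -2.31, adjusted p = 9.63e-06). Its groups did not overlap, which held in either direction for 6.9% of all genes tested. Olfm4 was the brightest of the 3 and weighed most in the sum. The mean log2 intensity of the 3 overlapped (6.95 to 8.29 in Hnf4aKO and 7.96 to 8.43 in Hnf4aWT tissue). Lgr5 differed by 0.08 and Ascl2 by -0.11 (adjusted p = 0.594). Of 5 Paneth cell markers 3 rose and 1 fell, and of 4 T and innate lymphoid cell markers 1 fell. Tff2, the one tested marker of Brunner glands, the mucous glands of the duodenum, was higher by 1.21 (adjusted p = 0.000451). It was detected on all 8 Hnf4aKO arrays, against 1 of 8 Hnf4aWT arrays. Every Hnf4aKO array was above every Hnf4aWT array, which held in this direction for 2.54% of all genes tested. Tff2 passed the detection filter only through its Hnf4aKO arrays. The same held for Itgam (6 Hnf4aKO and 0 Hnf4aWT arrays) and Itgax (8 and 1) among the macrophage markers that rose. It also held for the endothelial marker Cdh5 (7 and 2). The calls of these 4 genes are not independent of that filter. Among mast cell genes, Cma1 was detected on 5 Hnf4aKO arrays and 1 Hnf4aWT array and did not pass (0.37, adjusted p = 0.0641). Cpa3 was detected on 5 arrays and was not tested, and Mcpt1, Mcpt2 and Tpsb2 were not detected on any array. Hnf4aKO array 1, the lowest Hnf4aKO array for Areg, Ereg, Btc and Hbegf, had the highest macrophage sum (53468) and the highest adipocyte sum (40080, against 296.9 to 14349 in Hnf4aWT tissue). Hnf4aKO array 6 had a macrophage sum of 18134, within the Hnf4aWT range, and read 11.74 for Egfr, 12.69 for Areg and 10.50 for Btc, each above every Hnf4aWT array. Hnf4aKO array 5 went the other way, with a macrophage sum of 33191, above every Hnf4aWT array. It was also the highest array for Egfr (11.82), Areg (13.19), Btc (10.57) and Errfi1 (12.63). Beyond these values, the part of other cell types in the differences was not tested.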

How the data were processed

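RNA of 16 mice was labelled with biotin and hybridised to Illumina bead arrays, per the labels' protocols. The deposited intensity of each probe is not normalized, and the detection p-value deposited beside it moves in steps of 1 in about 798, taken here as the number of negative control beads. The deposited series table holds a normalized intensity, with no method named, and served as an alternative. Scanner software and probe build: not given in the sources used here.

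Background was removed by normexp (limma 3.58.1, R 4.3.3; offset 16, with the mean and SD of the controls estimated through the detection p-values), quantile normalized and converted to log2. Differences of dim probes were smaller without the correction or with a larger offset. A probe detected (p under 0.05) on at least 6 of 16 arrays was kept (13460 probes), and the brightest per gene was tested (10143 genes) by limma (lmFit, eBayes) on genotype alone, Benjamini-Hochberg adjusted over all genes and a threshold of 0.05. Symbols were updated for 3903 probes and kept as deposited for 1061.

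Every adjusted p is from limma unless called a permutation p, and differences are Hnf4aKO minus Hnf4aWT with their standard error (SE). Each array was taken as a separate animal, since the series speaks of mice, and precision depends on how many there are. Arrays correlated at 0.951 to 0.993, and none was counted as a duplicate. All members, Hnf4a, and up to 3 genes past the threshold with the largest difference from each pathway list (or the gene with the smallest p) were named, with the 3 genes most like each member that rose. The 10 members and the gene lists were chosen with earlier results of these data known. One gene that the naming rule selects is not reported here. Steps were tested on simulated data. Alternatives covered background, scaling, the series table, filters, probes, slides, pairing, weights and single arrays.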

Additional observations from a re-analysis of the deposited data

Results flagged for a closer look

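One value stood apart from its group. Hbegf on Hnf4aKO array 1 read 8.41 log2 units, and the nearest other Hnf4aKO array read 9.14. This gap was 0.579 of the range of the 8 arrays, above Dixon's 95% critical value. Of 26 groups of 8 arrays checked 1 held such an array, and chance alone flags about 5% of groups. The same array was the lowest of the Hnf4aKO arrays for Areg (12.42), Ereg (5.29) and Btc (9.02). Without it Hbegf passed the threshold, at 0.55 (SE 0.13, adjusted p = 0.00499).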

How the results depend on the processing

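The results were computed under 30 alternatives, of which 16 left out 1 array. Egfr passed the threshold in all 30 (log2 difference 0.75 to 1.25), Areg in 28, Btc in 29 and Errfi1 in 27, and Hbegf in 4: slide 2 alone, array weights (adjusted p = 0.0173), and without Hnf4aKO array 1 or Hnf4aWT array 7. Ereg turned to 0.0035 with array weights and lay between -0.19 and 0.045 when 1 array was left out. Counts of genes, members and pathway genes past the threshold (3115, 4 and 16) were 2697, 2 and 9 with median scaling, 762, 1 and 1 on slide 1, and 1332, 5 and 5 on slide 2, where fewer arrays were fitted. Leaving out 1 array gave 2646 to 3369 genes, 4 to 5 members and 9 to 17 pathway genes, with 9 without Hnf4aKO array 5 and 10 without Hnf4aKO array 7 or 8 or Hnf4aWT array 2. Median scaling moved the median of all genes to -0.11, against -0.02, and the share of higher calls to 32.3%, against 44.1%, and the cause was not tested. With a replicate block, 3459 genes, 4 members and 15 pathway genes passed. Deviations of same-numbered arrays correlated between -0.23 and 0.39, not all above 0.1, and no label ties the numbers to a litter or batch, so they were used as names only. As a hint from the data, 4 of 8 Hnf4aKO arrays correlated best with their own number. Tgfa, Egf and the annotated Ereg probe lay at background, which limits what can be said of them.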
